A study of Mus musculus with 6 samples.

Results

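mt-Th, mt-Ts2 and mt-Tl2 are 3 adjacent mitochondrial tRNA genes, for histidine, serine and leucine, transcribed from the same strand between mt-Nd4 and mt-Nd5. They were chosen by their position as neighbours and make up 3 of the 37 genes of the mouse mitochondrial chromosome, 3 of its 22 tRNA genes. The libraries hold small RNA of pancreatic islets, which contain the insulin-producing beta cells. The mice were either Mrpp3WT (wild type, 3 libraries) or Mrpp3N434S (a substitution in MRPP3, here called mutant, 3 libraries), and all had been given a high-fat diet for 14 weeks. Each genotype is described as 3 mice; the sources used here give no age, sex or strain background, and there was no group on another diet. The values were counts of each base at each position of the mitochondrial chromosome on each strand, so neither the islet identity nor Mrpp3 itself could be checked against nuclear genes.

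Mitochondrial tRNAs lie within long precursor transcripts. RNase P, a complex of MRPP1, MRPP2 and the nuclease MRPP3, cuts at their 5′ ends, ELAC2 cuts at their 3′ ends, and a CCA tail is then added. MRPP1, with MRPP2, also methylates a purine at position 9, and a methylated adenine there can be misread or can stop reverse transcriptase. A small RNA library takes up short molecules whose ends can be ligated, so depth here reflects fragments and short transcripts and is not a direct measure of whole tRNA.

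The sequences are shown because the 3 genes differ in what stands at position 9, given in capitals: an adenine in mt-Th and mt-Tl2, a thymine (uridine in the RNA) in mt-Ts2. All are forward-strand sequences of chromosome M in GRCm38, as read from the reference base of the deposited files, written 5′ to 3′.
mt-Th: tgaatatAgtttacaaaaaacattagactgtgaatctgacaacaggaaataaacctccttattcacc
mt-Ts2: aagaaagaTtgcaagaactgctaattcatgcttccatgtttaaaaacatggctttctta
mt-Tl2: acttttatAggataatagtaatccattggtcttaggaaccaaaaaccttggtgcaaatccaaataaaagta
mt-Th (ENSMUSG00000064364.1) spans chrM:11546-11612, 67 bases. mt-Ts2 (ENSMUSG00000064365.1) spans chrM:11613-11671, 59 bases, and reads AGY serine codons with a tRNA that lacks the D arm. mt-Tl2 (ENSMUSG00000064366.1) spans chrM:11671-11741, 71 bases, and reads CUN leucine codons.

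The 4 junctions are shown as 20 bases each, with capitals for the first base after each rise in depth. At the end of mt-Ts2, capitals mark its last base and the 2 beyond it. Depth at the base after these, 11674, was 7 reads or fewer. No base separates mt-Th from mt-Ts2, so the 3′ end of one is the 5′ end of the next. mt-Ts2 and mt-Tl2 share base 11671, so 1 precursor molecule cannot give both of them that base.
mt-Nd4 to mt-Th, chrM:11535-11554: ctgacaatatGtgaatatag
mt-Th to mt-Ts2, chrM:11603-11622: cttattcaccAagaaagatt
mt-Ts2 to mt-Tl2, chrM:11662-11681: ggctttcttACTtttatagg
mt-Tl2 to mt-Nd5, chrM:11732-11751: aataaaagtaAtcaatattt

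Depth, the number of reads over a base, differed widely among the 3 neighbours. Averaged along each gene and over the 6 libraries, mt-Ts2 had a mean depth of 1985 reads per base and ranked 1 of 22 mitochondrial tRNAs. mt-Th had 805 and ranked 5, and mt-Tl2 had 25.5 and ranked 17. The summed depth of all mitochondrial bases ran from 3156761 to 4337052 for wild type and from 5461367 to 10923311 for the mutants, so every mutant library was deeper. The highest depth within the cluster was 1722 to 3340 per library, while rRNA positions of the mutant libraries reached 7997 to 8000, the apparent limit of the counting. In the wild-type libraries the highest depth at any position was 7436, 7756 and 7498. Any depth lost to such a limit is missing from the summed depth, and from scalings to library totals or to the rRNA genes. How much was lost was not tested. The cluster took 4.62%, 4.06% and 4.003% of that summed depth in the wild-type libraries (replicates 1, 2 and 3) and 2.003%, 2.60% and 3.52% in the mutants. Each mutant share was below each wild-type share (4.23% ± 0.341 against 2.71% ± 0.766, SD, n = 3 each; exact two-sided permutation p = 0.1, the smallest that 3 against 3 libraries can give; 0.6 after Benjamini-Hochberg adjustment over 12 such values).

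**Figure D1:**
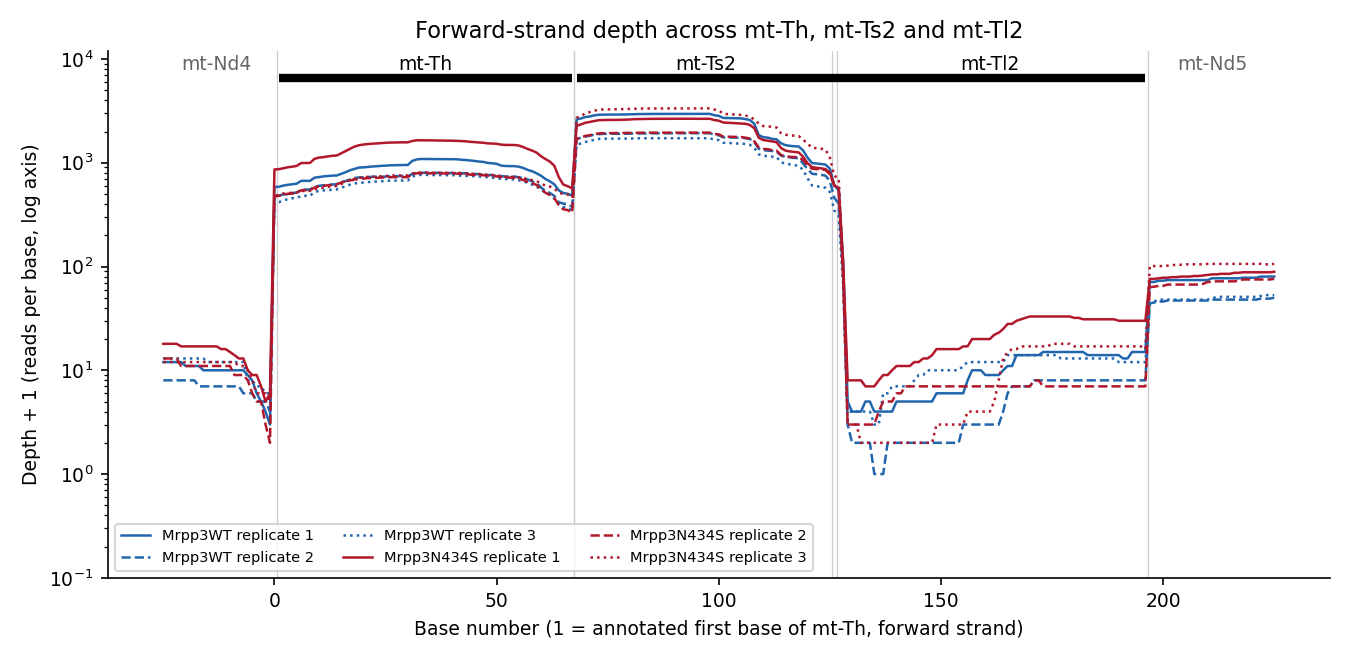
Forward-strand depth plus 1 (reads per base, log axis) along the cluster, 1 line per library, against the base number from the annotated start of mt-Th; bars mark the genes. In all 6 libraries depth rose steeply 1 base before mt-Th, rose again at mt-Ts2, and fell within the first 4 bases of mt-Tl2.

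The mean depth of mt-Ts2 before any scaling was 2386, 1600 and 1413 in the wild-type libraries, in order of replicate number, and 2139, 1636 and 2735 in the mutants. For mt-Th it was 862, 673 and 621 against 1338, 658 and 681. For mt-Tl2 it was 26.1, 16.9 and 19.3 against 38.2, 22.5 and 29.9. Mutant replicate 1 was highest for mt-Th and mt-Tl2, and mutant replicate 3 for mt-Ts2; the unscaled ranges of the genotypes overlapped for each gene.

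The depth counted for mt-Tl2 lay largely at its 5′ edge. Its first 3 bases, where the depth continued down from mt-Ts2, held 67.4%, 78.2% and 52.2% of its summed depth in the wild-type libraries and 47.3%, 76.7% and 72.2% in the mutants. Over its other bases the mean depth was 8.88, 3.85 and 9.63 in wild type and 21.0, 5.46 and 8.68 in the mutants. On this per-base scale mt-Ts2 stood 102-fold to 415-fold above mt-Tl2 within a library, and mt-Th 63.6-fold to 175-fold above it. The remaining mt-Tl2 depth was lowest near the 5′ end and reached 14, 7 and 11 reads in wild type and 29, 6 and 15 in the mutants at its last base, 11741.

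For the comparison of levels, depth was scaled by TMM over the mitochondrial genes, so each level is relative to other mitochondrial RNA. In bulk islets, a change within cells and a change in the mix of cells cannot be told apart. The edgeR quasi-likelihood test called 2 of 34 genes at an adjusted p under 0.05, 5.88% of those tested, and none of the 3 neighbours was among them. The called genes were mt-Rnr1, the small ribosomal RNA, which rose, and mt-Tm, the methionine tRNA, which fell; 0 genes were called without wild-type replicate 1 or without wild-type replicate 3. Of the other 19 tRNAs, 16 were tested, 0 rose and 1 fell (mt-Tm), with a median log2 change of -0.28. The 3 neighbours had a median of -0.26, and all 34 genes had -0.03.

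The scaled depth of mt-Th was 840, 948 and 946 in wild type and 835, 756 and 600 in the mutants. Every mutant value was below every wild-type value, as for 7 of the 34 genes (20.6%). The fitted log2 change was -0.32 (SE 0.24, 95% interval -0.80 to 0.17, edgeR adjusted p = 0.365), from 911 ± 62.0 to 731 ± 120 (SD, n = 3 each). This call depended on the scaling: the log2 change was -0.72 (adjusted p = 0.00798) when libraries were scaled to their totals, -0.94 (adjusted p = 0.00252) when scaled to the rRNA genes, and 0.07 when scaled to the tRNA genes. The median over all genes moved with it, to -0.43, -0.65 and 0.38, since a scaling shifts all genes together; these values therefore give no direction for mt-Th that holds under every scaling.

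The scaled depth of mt-Ts2 was 2324, 2254 and 2152 in wild type and 1335, 1880 and 2410 in the mutants. The mutant libraries lay on both sides of the wild-type range, and their SD was 538 against 86.6. The log2 change was -0.26 (SE 0.25, 95% interval -0.76 to 0.24, edgeR adjusted p = 0.468), and it turned to 0.15 when scaled to the tRNA genes. mt-Tl2 had 25.3, 24.0 and 28.9 in wild type and 23.7, 25.3 and 26.4 in the mutants, a log2 change of -0.05 (SE 0.21, 95% interval -0.47 to 0.37, edgeR adjusted p = 0.900), which was -0.67 when scaled to the rRNA genes (adjusted p = 0.0408) and 0.37 when scaled to the tRNA genes. Base counts do not show which gene a read came from, so with its first 3 bases included this is not a level of mt-Tl2 alone.

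A ratio of 2 neighbours within a library needs no scaling. mt-Ts2 over mt-Th was 2.77, 2.38 and 2.28 in wild type and 1.599, 2.49 and 4.01 in the mutants. Mutant replicate 1 was below all wild-type libraries and mutant replicate 3 above them (2.47 ± 0.259 against 2.70 ± 1.22, SD, n = 3 each; log2 difference 0.03, exact permutation p = 0.9, adjusted p = 0.9 over 3 pairs). The difference was -0.31 without mutant replicate 3 and 0.36 without mutant replicate 1. mt-Tl2 over mt-Th differed by 0.29 and mt-Tl2 over mt-Ts2 by 0.25 on the log2 scale (exact permutation p = 0.3 and adjusted p = 0.45 for both). Both include the first 3 bases of mt-Tl2, where the depth continued down from mt-Ts2. Without those bases the differences were 0.29 and 0.26 (exact permutation p = 0.6 and 0.7, adjusted p = 0.9 for both).

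**Figure D2:**
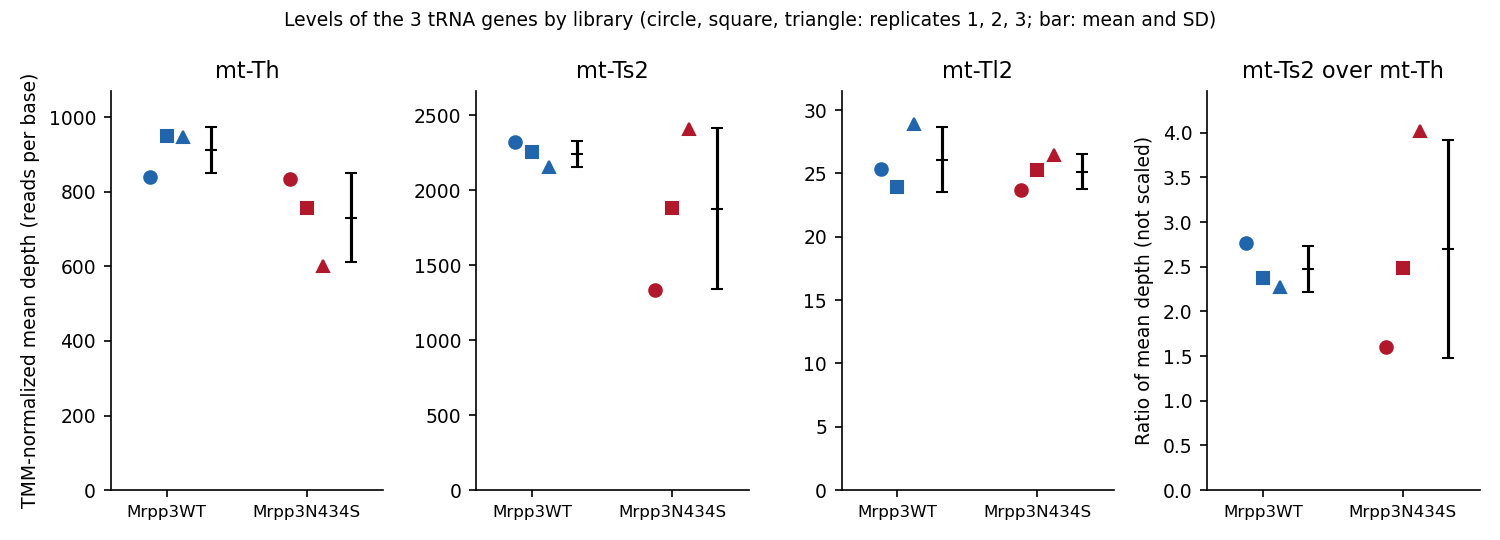
TMM-normalized mean depth (reads per base) of mt-Th, mt-Ts2 and mt-Tl2, and the unscaled ratio of mt-Ts2 to mt-Th, with 1 point per library and bars for the mean and SD of 3 libraries. The 3 mutant mt-Th values lay between 600 and 835, below the wild-type values, and the mutant mt-Ts2 values and ratios spread on both sides of wild type.

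Over the 6 libraries, the genes whose log2 scaled depth was most like that of mt-Th, of 33 compared, were mt-Ta (Pearson r = 0.927), mt-Tn (0.841) and mt-Tq (0.824), tRNAs for alanine, asparagine and glutamine. For mt-Ts2 they were mt-Tr (0.670), mt-Atp8 (0.655) and mt-Tv (0.616). For mt-Tl2 they were mt-Tw (0.778), mt-Atp8 (0.494) and mt-Nd4l (0.493). These are descriptions over 6 points that share libraries, scaling and depth, and no p was computed. mt-Ts2 was not among the 3 genes nearest to mt-Th.

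The 5′ end of mt-Th, the RNase P side, was the steepest junction. Depth was 2, 3 and 5 in wild type and 5, 1 and 4 in the mutants at 11544, the last base of mt-Nd4. At 11545, marked G in the first junction sequence, it was 581, 478 and 415 in wild type and 860, 475 and 480 in the mutants. The rise therefore lay 1 base before the annotated start, 11546, in all 6 libraries. Counted from 11545, the adenine at 11553 is base 9, whereas it is base 8 of the annotated gene, and the authors' deposited table lists 11553 as position 9.

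An end ratio here is the mean depth of the 10 bases outside an end over that of the 10 bases inside it. With the annotated start, the ratio at the mt-Th 5′ end was 0.0996 ± 0.0031 in wild type and 0.0999 ± 0.0037 in the mutants (SD, n = 3 each), and nearly all of the outside depth was that of base 11545. With the start moved to 11545 the ratio was 0.0123 ± 0.0045 against 0.0119 ± 0.0027, a log2 difference of -0.01 (SE 0.83, 95% interval -1.79 to 1.77, edgeR adjusted p = 0.992), where the outside depth was 4.8 to 9.1 reads per base. No end of any tRNA passed the edgeR test with annotated starts (0 of 25, 0.0% called; 2 at an unadjusted p under 0.05; limma called 0 and DESeq2 2, neither at these genes).

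The step from mt-Th into mt-Ts2 was upward in every library. Depth went from 481 to 2607, 374 to 1704 and 341 to 1497 between bases 11612 and 11613 in wild type, and from 565 to 2268, 328 to 1703 and 462 to 2718 in the mutants. That is a rise of 5.42, 4.56 and 4.39 times in wild type and 4.01, 5.19 and 5.88 times in the mutants. Over 10-base windows the ratio was 3.88 ± 0.489 against 4.05 ± 1.39 (log2 difference 0.01, SE 0.29, 95% interval -0.66 to 0.68, edgeR adjusted p = 0.995). The test counts this junction at both genes, as the mt-Th 3′ end and the mt-Ts2 5′ end.

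The 3′ end of mt-Ts2 was spread over several bases. At its last unshared base, 11670, depth was 877, 668 and 523 in wild type and 802, 774 and 1119 in the mutants. At the shared base 11671 it was 603, 458 and 346 against 602, 604 and 747, and at 11672, inside mt-Tl2, 539, 402 and 305 against 571, 548 and 706. It then dropped to 108, 79 and 64 against 108, 72 and 82 at 11673, and to 4, 2 and 3 against 7, 2 and 2 at 11674.

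Read as a share of the mt-Ts2 peak, depth at 11672 was 18.2%, 20.9% and 17.7% in wild type and 21.5%, 28.1% and 21.1% in the mutants. Each mutant value was above each wild-type value there. This base was picked after values were seen and was not tested, and how many other bases separate in this way was not counted. At the next base, 11673, the share was 3.82% ± 0.246 in wild type and 3.41% ± 0.844 in the mutants, the other direction. At the shared base 11671 the share was 21.4% ± 2.07 against 25.3% ± 4.88 and the groups overlapped (exact permutation p = 0.3, adjusted p = 0.9 over 12 values). The 10-base ratio at the mt-Ts2 3′ end was 0.0603 ± 0.0024 against 0.0676 ± 0.0101 (log2 difference 0.15, SE 0.18, 95% interval -0.26 to 0.56, edgeR adjusted p = 0.755). At the mt-Tl2 5′ end, whose windows are shifted by 1 base, it was 9.46 ± 0.422 against 8.47 ± 1.21 (log2 difference -0.16, SE 0.17, 95% interval -0.55 to 0.23, edgeR adjusted p = 0.755).

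From mt-Tl2 into mt-Nd5, which encodes a subunit of complex I, depth rose from 14 to 70, 7 to 43 and 11 to 44 reads in wild type and from 29 to 75, 6 to 62 and 15 to 100 in the mutants. The 10-base ratio was 5.35 ± 1.18 against 6.62 ± 4.09 (fitted log2 difference -0.07, SE 0.53, 95% interval -1.32 to 1.17, edgeR adjusted p = 0.995). The means and the fit point in opposite directions, and limma on log2 ratios gave 0.11, so no direction is read from this end. At this depth only a large difference could have been seen.

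**Figure D3:**
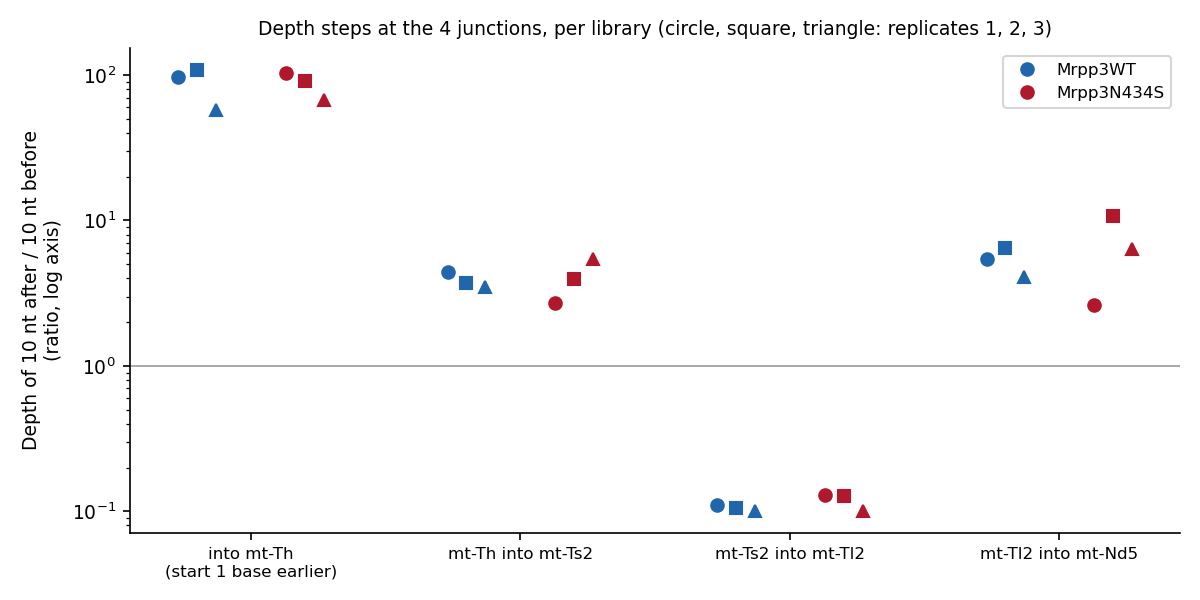
Ratio (log axis) of the depth of the 10 bases after each junction to the 10 bases before it, in transcript order, with 1 point per library; mt-Th is taken to start at its rise. The genotypes overlapped at the junctions into mt-Th, mt-Ts2 and mt-Nd5, and mutant replicate 3 lay beside the wild-type libraries at the junction of mt-Ts2 with mt-Tl2.

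Within the genes, depth was balanced between the ends of mt-Th and sloped down along mt-Ts2. mt-Th held 53.5%, 59.8% and 54.3% of its peak depth at 11545 in wild type and 52.2%, 60.0% and 59.7% in the mutants. Its largest rise inside the gene averaged 5.62% of the peak, at 11576, and its largest fall was -8.06%, at 11609. At its last base, 11612, it held 44.3%, 46.8% and 44.6% in wild type but 34.3%, 41.4% and 57.5% in mutant replicates 1, 2 and 3 (exact permutation p = 1).

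mt-Ts2 started at 88.1%, 88.6% and 86.9% of its peak in wild type and 85.4%, 87.3% and 81.4% in the mutants (exact permutation p = 0.2, adjusted p = 0.8 over 12 values). Its largest inner fall was at 11654, where depth changed by -17.6%, -11.5% and -10.6% of the peak in wild type and by -15.5%, -10.6% and -7.22% in the mutants. The next inner falls were -9.64% at 11671 and -6.52% at 11659, as means over the 6 libraries.

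The depth of the 5′ segment of each tRNA was divided by that of its 3′ segment, each covering one of 3 equal parts, rounded down to whole bases. For mt-Th (11546 to 11567 over 11591 to 11612) the ratio was 0.934 ± 0.0296 in wild type and 0.945 ± 0.0429 in the mutants (SD, n = 3 each; log2 difference 0.02, SE 0.07, edgeR adjusted p = 0.849). For mt-Ts2 (11613 to 11631 over 11653 to 11671) it was 1.92 ± 0.146 against 1.85 ± 0.158 (log2 difference -0.06, SE 0.09, edgeR adjusted p = 0.750). The mt-Tl2 ratio, 4.41 ± 1.47 against 5.25 ± 3.79, again rested on its first 3 bases (fitted log2 difference -0.21, SE 0.49, edgeR adjusted p = 0.768). Here too the mutant mean was the higher while the fitted difference was negative, and limma gave 0.04, so no direction is read. The test called 1 of 18 tRNAs (5.56%), mt-Tm, and no member of the cluster; the call was lost when any wild-type library or mutant replicate 3 was left out.

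Position 9 of mt-Th was the most often misread base of the cluster among those with at least 50 reads in every library. The mismatch share was 47.8%, 45.7% and 49.5% in wild type, over 668, 552 and 479 reads. In the mutants it was 52.7%, 48.3% and 28.8%, over 995, 542 and 534 reads. Mutant replicate 3 stood apart, with an exact 95% binomial interval of 25.0% to 32.9% against 49.5% to 55.8% in mutant replicate 1. These bounds allow for counting error alone. The group values were 47.6% ± 1.92 and 43.3% ± 12.7 (SD, n = 3 each), a log2 odds change of -0.26 (SE 0.31, 95% interval -0.87 to 0.36, edgeR adjusted p = 0.702). Without mutant replicate 3 the change was 0.20 (edgeR adjusted p = 0.289).

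That library was also the one with the highest mt-Ts2 to mt-Th ratio, 4.01, and the highest share of peak depth at the last base of mt-Th, 57.5%; their part in its position 9 value was not tested.

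mt-Ts2, with a uridine at position 9 and so no purine to methylate, was read at 11621 with mismatches of 0.206%, 0.0526% and 0.235% in wild type and 0.309%, 0.311% and 0.520% in the mutants. These are 6 of 2911, 1 of 1900 and 4 of 1705 reads against 8 of 2585, 6 of 1927 and 17 of 3271. Every mutant value was above every wild-type value, as for 2 of the 10 tRNAs tested (20%). The log2 odds change was 1.19 (SE 0.54, 95% interval 0.11 to 2.27) and did not pass (edgeR adjusted p = 0.170, unadjusted p = 0.0319). The median over the other bases of the gene was 0.296%, above the 3 wild-type values and below the 3 mutant values. mt-Tl2 had 4, 1 and 3 reads at 11679 in wild type and 6, 2 and 1 in the mutants, with 0 mismatches. The exact 95% binomial interval reached up to 45.9% at 6 reads and 97.5% at 1 read, so its adenine could not be assessed in single libraries.

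Of the 10 tRNAs tested at position 9, 0 were called (0.0%; 2 had an unadjusted p under 0.05). Neither limma nor DESeq2 called any, with 1 and 0 tRNAs at an unadjusted p under 0.05.

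The mismatches at 11553 were of 2 main kinds. Thymine made up 65.8%, 67.5% and 70.9% of them in wild type and 67.2%, 74.0% and 68.2% in the mutants (68.1% ± 2.58 against 69.8% ± 3.71, SD, n = 3 each; exact permutation p = 0.6). Guanine made up 33.9%, 32.1% and 28.7% against 32.1%, 25.2% and 31.2%. Cytosine was 1 to 4 reads per library. Mutant replicate 3, with the fewest mismatches, had 68.2% thymine and 31.2% guanine among them, within the range of the others. Over all libraries A8T, with positions counted from the annotated first base, made up 68.6% of 1748 mismatches.

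**Figure D4:**
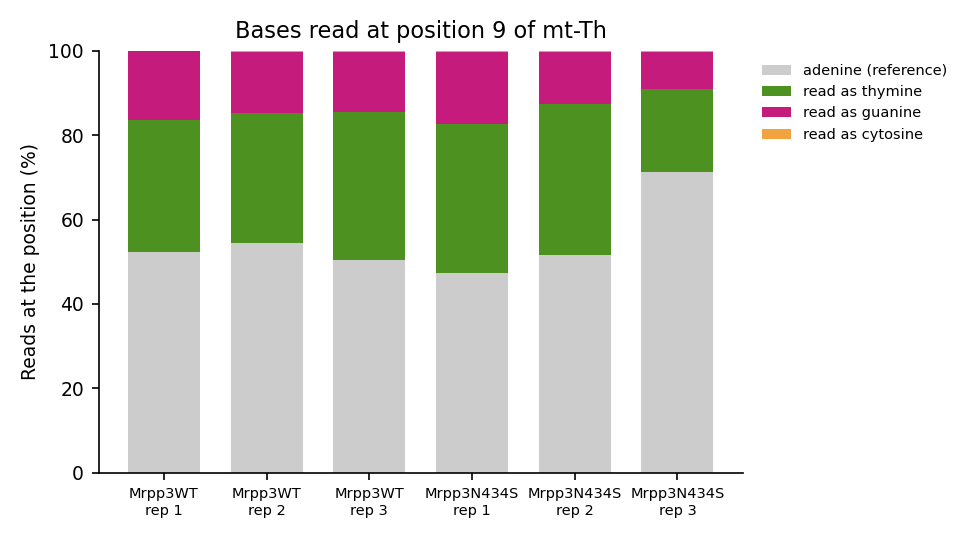
Share (%) of reads with each base at position 9 of mt-Th, 1 stacked bar per library. Adenine, the reference base, made up 47.3% to 54.3% of reads in 5 libraries and 71.2% in mutant replicate 3, with thymine the most frequent other base in each.

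Beside position 9, mt-Th carried many weaker mismatches. Of its 67 bases, all with at least 50 reads in every library, 1 averaged 5% or more, 5 averaged 2% or more and 16 averaged 1% or more. The 4 between 2% and 5% were G9T at 11554, A20G at 11565, A27G at 11572 and A33G at 11578, each named by its most frequent change. At 11554, next to position 9, the share was 3.21%, 2.22% and 2.11% in wild type and 1.93%, 1.74% and 1.26% in the mutants (2.52% ± 0.606 against 1.64% ± 0.343; log2 odds change -0.60, SE 0.33, edgeR adjusted p = 0.305). At 11565 it was 3.03% ± 0.235 against 2.60% ± 0.245, at 11572 1.86% ± 0.427 against 2.20% ± 0.529, and at 11578 3.04% ± 1.28 against 2.26% ± 0.676 (SD, n = 3 each; edgeR adjusted p = 0.506, 0.506 and 0.305).

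These weaker mismatches were clustered. In bases 18 to 37, 12 of 20 averaged 1% or more, with a median of 1.18%. In bases 38 to 67, 0 of 30 did so, with a median of 0.288%. Since the stretch was marked out after its values were seen, it is described without a test. Adenine read as guanine made up 41.6% of the 2294 mismatches of mt-Th outside position 9, and thymine read as cytosine 19.05%.

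mt-Ts2 was more evenly read. None of its 59 bases averaged 2% or more and 2 averaged 1% or more, T41A at 11653 (1.71% ± 0.366 in wild type, 1.82% ± 0.448 in the mutants) and A43C at 11655 (1.36% ± 0.132 against 1.45% ± 0.152). They flank 11654, where the depth had its largest inner fall. Adenine read as guanine made up 29.9% of its 2447 mismatches outside position 9, thymine read as cytosine 19.9% and thymine read as adenine 16.5%. In mt-Tl2, 3 of 71 bases had at least 50 reads in every library, and those were the first 3.

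Averaged over the bases other than position 9, mt-Th had mismatches of 0.701% ± 0.0541 in wild type and 0.681% ± 0.0628 in the mutants and ranked 2 of 13 tRNAs, after mt-Tl1. mt-Ts2 had 0.350% ± 0.0150 against 0.368% ± 0.0453 and ranked 4 (SD, n = 3 each; exact permutation p = 0.7 for both genes). These ranks are by mean. The median base was 0.537% in mt-Th, with 15 of 66 bases at 1% or more. It was 0.250% in mt-Tl1, with 2 of 47. Of tRNA and rRNA bases tested with edgeR, 0 of 6 with a mean of at least 5%, 0 of 14 with at least 2% and 0 of 42 with at least 1% were called (0.0% each), with 1, 2 and 2 at an unadjusted p under 0.05. For the 6 bases, limma and DESeq2 called 0 as well, with 2 and 1 at an unadjusted p under 0.05.

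**Figure D5:**
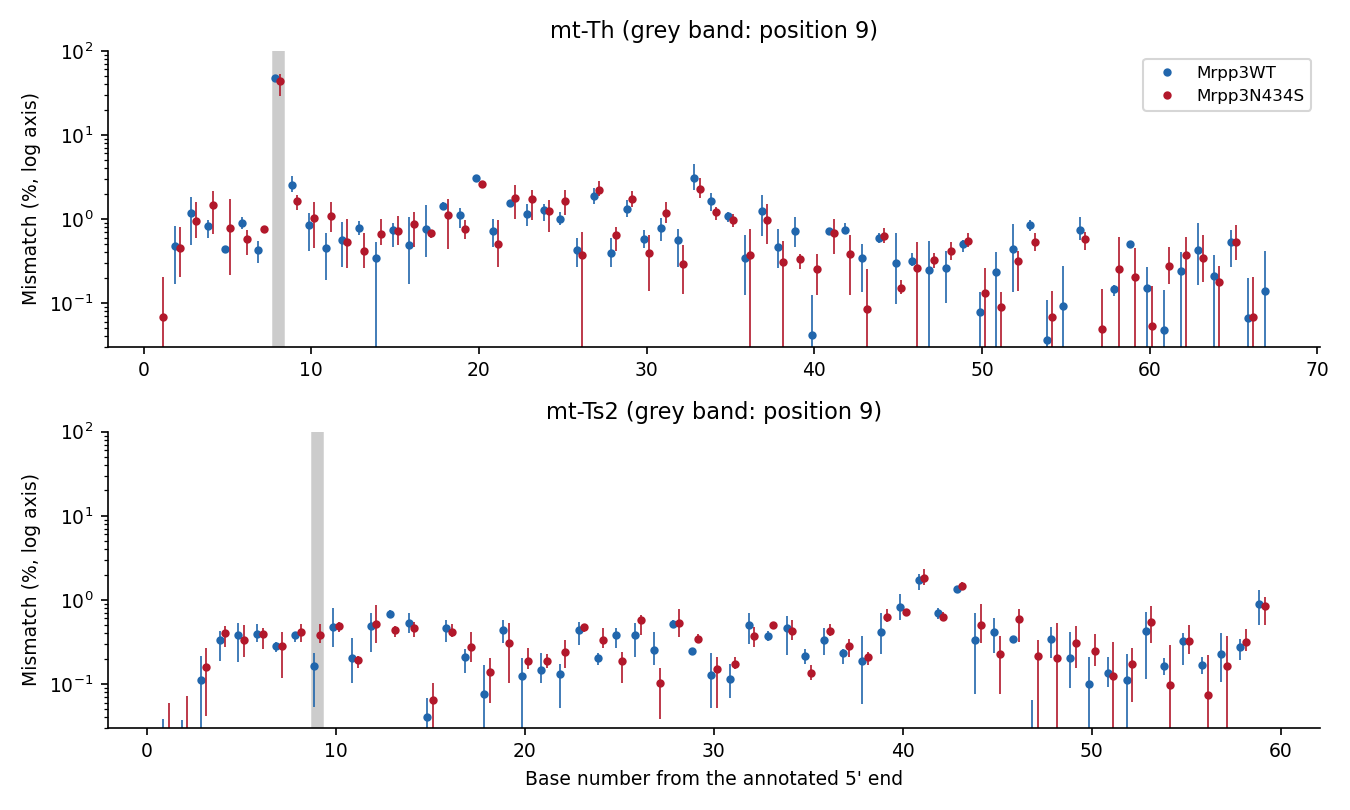
Mismatch share (%, log axis) at each base of mt-Th (top) and mt-Ts2 (bottom), counted from the annotated start; points are means and lines the range of 3 libraries per genotype, and values under the axis are not drawn. Position 9 of mt-Th stands at 47.6% and 43.3%, while no other base of either gene averages 5%.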

How the data were processed

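Islet RNA from 3 Mrpp3WT and 3 Mrpp3N434S mice was extracted with an miRNeasy kit and made into Illumina small RNA libraries, per the labels' protocols. The tools named are Trim Galore, cutadapt, FastQC and STAR, with GRCm38.p6, per the submitters' processing notes; the sources used here do not give their versions and order, the read length or the counting tool. Per the file headers, the deposited values are unscaled counts of each base (and of N) per strand at each mitochondrial position. The authors' deposited position 9 table gave only positions, since its 16 columns of per-sample values match no sample label. Positions missing from a file were given a depth of 0.

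Genes came from the GENCODE annotation of GRCm38. The rounded mean depth of each gene was tested by the quasi-likelihood method of edgeR 4.0.16 (R 4.3.3) where it averaged 10 or more over the libraries, with TMM scaling. The same test, with an effect for each library, compared the depth outside with that inside each tRNA end (10-base windows, both with a mean of at least 10), the 5′ with the 3′ segment, and mismatched with reference counts (at least 50 reads in every library). p-values were adjusted by the Benjamini-Hochberg method over all features of a test, with a threshold of 0.05. Single values per library were compared by exact permutation tests (two-sided), whose smallest p here is 0.1. Each SE was derived from the fitted log2 change and the F statistic. The scripts were tested on simulated data. The edgeR p-values judge a genotype difference against the spread between these libraries. The permutation p-values judge it against other assignments of the libraries to the genotypes.

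Alternatives were limma 3.58.1 with 0.5 added to counts, DESeq2 1.42.0, other scalings, windows and minimums, the replicate number as a block, and each library left out. The members, lists and tests were chosen with earlier results of these data known. The rule for named items took the 3 genes, their 6 ends, position 9, bases with a mean mismatch of at least 5%, and for each the 3 genes most like it in level. Bases with 1% to 5%, single depths, shares of peak depth, the cluster's share of depth, mt-Th started at 11545 and mt-Tl2 without its first 3 bases were added after values were seen.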

Additional observations from a re-analysis of the deposited data

Results flagged for a closer look

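The strand opposite to the cluster, which no comparison uses, had a highest depth of 5 reads in mutant replicate 1, against 2, 3 and 3 in the wild-type libraries and 3 in each of the other mutant libraries. It is listed because it is above the highest wild-type value; the difference was not tested, and mutant replicate 1 had the highest summed depth of the 6 libraries.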

How the results depend on the processing

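Over 195 alternative values of the 3 genes, 164 kept direction and call, 28 changed direction and 3 passed the threshold: mt-Th scaled to library totals (-0.72) or rRNA genes (-0.94), and mt-Tl2 scaled to rRNA genes (-0.67). Scaled to the tRNA genes, mt-Th was 0.075, mt-Ts2 0.15 and mt-Tl2 0.37; mt-Tl2 was also 0.059 with no filter, 0.15 by maximum depth and -0.17 to 0.011 with a library left out. The cause of these changes was not tested. Genes called by depth numbered 6 with no filter, 9 scaled to totals (1 higher, 8 lower), 14 scaled to rRNA (0 and 14), 12 scaled to tRNA (12 and 0), 4 without positions above 6000, and 0 to 11 with a library left out (11 without mutant replicate 3, 0 without wild-type replicate 1 or 3), against 2 (1 and 1). Tested tRNA ends called were 2 with 20-base windows, 2 against the whole tRNA, 2 by DESeq2, 1 with mt-Th started at 11545, and 0 to 2 with a library left out; none belonged to these genes. Segment ratios called were 2 for halved tRNAs, 3 at a minimum of 50, 0 by limma and 0 to 3 with a library left out. The mt-Ts2 to mt-Th ratio was -0.010 by median depth and -0.31 to 0.36 with a library left out. Small differences that changed sign were, for the mt-Th 5′ end, -0.0030 with 5-base windows, -0.0070 with 1-base windows, -0.0089 started at 11545 and -0.026 to 0.031 with a library left out. For the mt-Th 3′ end they were -0.24 to 0.27, and for the mt-Tl2 3′ end 0.053 against the whole tRNA, 0.00025 with 1-base windows, 0.11 by limma and -0.39 to 0.56. Segment ratios ran from -0.011 to 0.045 (mt-Th), -0.12 to 0.0053 (mt-Ts2) and -0.56 to 0.43 (mt-Tl2, 0.039 by limma). Position 9 of mt-Th ran from -0.55 to 0.20, and its thymine share by -0.38 to 3.16 percentage points. Depth limits mt-Tl2 most, with 3.85 to 21.0 reads per base, by library, beyond its first 3.

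No clear pairing by replicate number was seen: same-numbered deviations correlated at -0.02, -0.22 and 0.25 over 34 genes. Differently numbered ones correlated at -0.33 to 0.33. With 3 libraries per genotype this cannot settle whether the numbers mark pairs. With the replicate number as a block, 0 genes were called by depth, 0 by end ratio, 0 by segment ratio and 0 at position 9.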

Other observations

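The base after each gene was read as follows over all libraries. After mt-Th, at 11613, where the genome has A, 1 of 12497 reads had C. After mt-Ts2, at 11672, where the genome has C, 3069 of 3071 had C. After mt-Tl2, at 11742, where the genome has A, 0 of 394 had C. A CCA tail also begins with C, so at 11672 an added C and the genome's C cannot be told apart. At the following base, 11673, the genome has T where a tail would have C. Depth there was 64 to 108 per library. Of the 3 mt-Tl2 bases with at least 50 reads in every library, which include 11673, 0 averaged mismatches of 1% or more. Depth was 1497 to 2718 per library at 11613 against 328 to 565 at 11612, the last base of mt-Th. At 11742 it was 43 to 100 against 6 to 29 at 11741. Most reads at 11613 and 11742 therefore did not extend from the gene before. Whether alignment removed unmatched end bases is not given either, so these counts do not show whether CCA tails were present.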
